A study of Mus musculus with 24 samples.

Results

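The genes followed here build or bind the nuclear lamina and heterochromatin, and they were chosen by symbol, namely Lbr, Lmna, Lmnb1, Lmnb2, Cbx1, Cbx3, Cbx5 and Casz1, which are 8 of the 33846 genes in the deposited count table. All 8 were matched by Ensembl identifier and all 8 passed the filter on low counts. Polyadenylated RNA of retinal organoids, layered retina-like tissue grown in vitro, was sequenced; the organoids were made from wild-type mouse embryonic stem cells by a modified HIPRO protocol. The stem cells came from blastocysts of Nrl-GFP transgenic mice or from another clone, R1, and no label ties a sample to a line. The 24 libraries fell into 9 groups of culture and day, and the design text calls them biological replicates.

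Dissected optic cups in a rotating-wall bioreactor (RWB), a slowly turning vessel that keeps tissue in suspension, gave 2 libraries at day 18 of differentiation (D18), 3 at D22 and 3 at D25. Dissected optic cups in static suspension culture (SSCd) gave 3 libraries each at D18, D22 and D28. Intact organoids in static suspension (SSCi) gave 2 libraries at D18, 2 at D25 and 3 at D32. The cups of RWB and SSCd were cut out at D10. All groups received N2, taurine, 9-cis retinal and insulin-like growth factor 1. Non-essential amino acids, B27 lacking vitamin A and fetal bovine serum entered the medium at D18 for the dissected cultures and at D26 for SSCi, so the effect of the days after that cannot be told apart from that of the richer medium. Totals ran from 13284632 to 21604446 estimated counts per library. Mitochondrial genes took 10.2% of the counts of RWB D22 replicate 1, 13.1% of RWB D25 replicate 1, 9.57% of SSCd D18 replicate 1 and 8.26% of SSCd D22 replicate 1, against 2.46% to 5.76% in the other 20 libraries. SSCi D18 replicate 1 stood apart through its mesenchyme transcripts. Results of single members that rest on it are given with and without it.

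In most cells heterochromatin is held at the nuclear envelope by tethers, of which the lamin B receptor (the product of Lbr) and the A-type lamins (of Lmna) are the best known. Mature mouse rods lack both, and their heterochromatin gathers in the centre of the nucleus, an arrangement called the inverted nucleus that is found in nocturnal mammals. The B-type lamins of Lmnb1 and Lmnb2 form the lamina that remains. The HP1 proteins HP1 beta (Cbx1), HP1 gamma (Cbx3) and HP1 alpha (Cbx5) bind methylated lysine 9 of histone H3. Casz1 encodes a zinc finger factor of mouse retinal progenitors and rods that is known to act on nuclear organization in rods. Nuclei themselves were not measured here.

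In GENCODE M21 on GRCm38, Lbr lies at chr1:181815335-181843046 on the minus strand, Lmna at chr3:88480147-88509956 on the minus strand and Casz1 at chr4:148804429-148954889 on the plus strand. Cbx3 lies at chr6:51470360-51483704 on the plus strand, Lmnb2 at chr10:80901203-80918245 on the minus strand, Cbx1 at chr11:96789127-96808640 on the plus strand and Cbx5 at chr15:103191544-103239816 on the minus strand. They are annotated as protein coding. Lbr overlaps Dnah14 on the other strand and the small RNA gene Gm26004 on its own, Casz1 overlaps the antisense genes Gm15969 and Gm13205, and Cbx1 overlaps the pseudogene Gm11517. The kit marks strand, but whether counting used it is not given in the sources used here, so reads of such pairs may not have been kept apart. Reads that Cbx1 and Cbx3 share with processed copies could likewise be split.

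The bases upstream of the transcription start are shown for 4 genes that were called in the same direction over all 3 culture courses. They were read from RefSeq on GRCm38.p6, where 7 of the 8 genes had a window, and the first window listed for a gene was taken. Each run is given 5′ to 3′ on the gene's own strand and ends next to the RefSeq start, except that of Cbx1, which stops 8 bases short of it, where the GENCODE gene begins. Capitals mark matches on either strand to motifs chosen with the results known: the CCAAT box, the cell cycle homology region (TTTGAA or TTCGAA), the core bound by CRX (TAATCC) and an E2F site (TTTCCCGC, TTTGGCGC, TTTCGCGC or TTTGCCGC).
Lbr, chr1:181842402-181842651, minus strand: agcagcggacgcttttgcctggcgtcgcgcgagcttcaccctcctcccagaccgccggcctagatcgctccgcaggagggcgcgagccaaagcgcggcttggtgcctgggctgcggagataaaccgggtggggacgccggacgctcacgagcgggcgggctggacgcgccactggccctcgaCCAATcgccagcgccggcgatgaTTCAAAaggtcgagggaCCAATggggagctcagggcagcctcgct
Cbx1, chr11:96788885-96789126, plus strand: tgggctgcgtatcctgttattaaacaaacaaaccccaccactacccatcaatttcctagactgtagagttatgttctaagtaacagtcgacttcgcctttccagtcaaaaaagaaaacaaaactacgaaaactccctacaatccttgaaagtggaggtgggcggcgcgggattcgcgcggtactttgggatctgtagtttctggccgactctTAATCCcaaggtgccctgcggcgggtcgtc
Cbx5, chr15:103239853-103240102, minus strand: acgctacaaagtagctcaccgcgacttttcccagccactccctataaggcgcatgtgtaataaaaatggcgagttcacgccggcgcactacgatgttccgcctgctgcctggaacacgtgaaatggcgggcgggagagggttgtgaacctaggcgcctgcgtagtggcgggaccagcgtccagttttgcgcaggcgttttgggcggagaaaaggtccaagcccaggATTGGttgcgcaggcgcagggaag
Casz1, chr4:148889097-148889346, plus strand: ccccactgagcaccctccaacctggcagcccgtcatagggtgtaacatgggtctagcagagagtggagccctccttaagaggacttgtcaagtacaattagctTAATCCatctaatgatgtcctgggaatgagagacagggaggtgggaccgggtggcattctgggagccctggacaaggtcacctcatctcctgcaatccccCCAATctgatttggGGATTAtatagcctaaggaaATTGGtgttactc

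The Lbr window, which lies inside the GENCODE gene, held a CCAAT box starting 68 and another starting 28 bases before the start, with TTCAAA, the complement of the cell cycle homology region, at 45. The Cbx1 run, of 242 bases, held TAATCC at 38. The Cbx5 window held ATTGG, the complement of CCAAT, at 24. In the Casz1 window, which also lies inside its gene, TAATCC began 147 bases and its complement GGATTA 33 bases before the start, with CCAAT at 47 and ATTGG at 13. The other window of Casz1 and that of Cbx5 held 0 matches. Over the same 250 bases of all 32851 windows in the table, 33.8% held a CCAAT box, 17.1% the cell cycle homology region, 6.25% the CRX core and 1.86% an E2F site. A match is a description of these letters and not a bound site.

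Levels are CPM, counts scaled to a common library total, after TMM scaling, which corrects that total for the library's composition, and log2 fold changes come from edgeR's quasi-likelihood test with Benjamini-Hochberg adjustment over 16792 genes. A gene was called at an adjusted p under 0.05. Over the whole course the set moved mainly downward, and Casz1 moved up. From D18 to D25 in RWB, 1 gene rose and 4 fell, where 28.9% of all tested genes were called, 14.9% higher and 14% lower. From D18 to D28 in SSCd, 1 rose and 6 fell, where 34.6% were called, 17.5% higher and 17.1% lower. From D18 to D32 in SSCi, 1 rose and 5 fell, where 36.7% were called, 16.2% higher and 20.5% lower. Lmna was 1 of these 5, and its log2 fold change was 0.01 without SSCi D18 replicate 1. The median log2 fold change of the 8 genes was -0.79, -1.04 and -1.36 in RWB, SSCd and SSCi, beside 0.06, 0.02 and -0.05 over all tested genes. The SSCi median and shares were taken with SSCi D18 replicate 1 included. Lbr, Lmnb1, Cbx1 and Cbx5 fell and Casz1 rose in all 3 courses. Lmnb2 and Cbx3 were called lower in SSCd only, and whether their change differed between cultures was not tested over these spans.

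**Figure D1:**
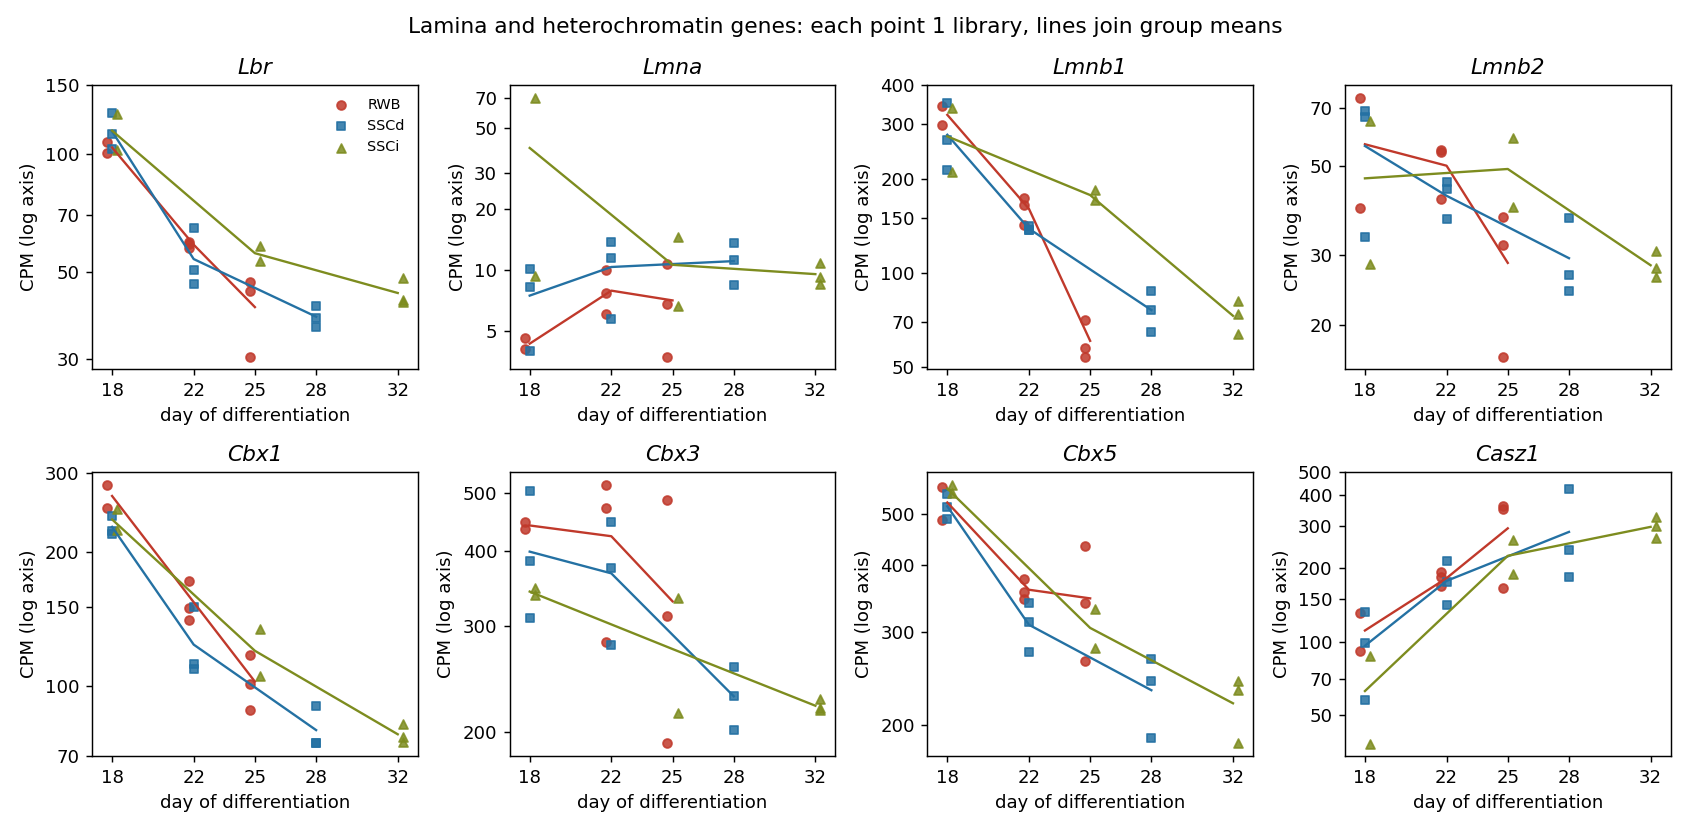
CPM of the 8 genes (log axis) against day of differentiation, with each point 1 library and lines joining group means. Lbr, Lmnb1 and Cbx1 stand lower on each later day in all 3 cultures, Casz1 stands higher, and 1 SSCi library at D18 lies far above the others for Lmna.

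The bulk libraries were mixtures, so fewer cells that carry a transcript and less of it per cell cannot be told apart. The summed level of 12 rod genes averaged 77.8, 2224 and 4406 CPM at D18, D22 and D25 in RWB. It averaged 158.6, 4648 and 8746 CPM at D18, D22 and D28 in SSCd and 86.6, 4349 and 10850 CPM at D18, D25 and D32 in SSCi. The groups of a culture did not overlap between D18 and the later days in this sum. Over the same days 12 cell cycle genes summed to 3305, 1403 and 398.4 CPM in RWB, 2646, 907.1 and 237.2 CPM in SSCd and 2492, 878.7 and 203.6 CPM in SSCi. Transcripts of 8 Müller glia genes summed to between 808.8 and 1697 CPM in all libraries. The 8 ganglion cell genes summed to 861.8, 163.2 and 76.4 CPM over the RWB days, 555.5, 134.6 and 116.9 CPM over the SSCd days and 622.0, 124.5 and 160.5 CPM over the SSCi days. Rod, dividing cell and ganglion cell transcripts moved beside every course described here, and their part in the members' changes was not tested.

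Lbr, whose product also carries a sterol reductase activity, fell in all 3 cultures, with the called steps before the middle day. In RWB its level was 107.4 and 100.3 CPM at D18, 58.8, 59.4 and 57.6 CPM at D22, and 46.95, 44.7 and 30.2 CPM at D25. In SSCd it was 103.2, 127.3 and 112.2 CPM at D18, 50.6, 64.6 and 46.4 CPM at D22, and 38.0, 41.0 and 36.1 CPM at D28. In SSCi it was 102.5 and 126.8 CPM at D18, 58.1 and 53.4 CPM at D25, and 41.9, 42.2 and 48.3 CPM at D32. No 2 days of the same culture overlapped.

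In RWB, Lbr fell by 1.35 on the log2 scale at D25 against D18 (SE 0.18, edgeR adjusted p = 1.18e-05). In SSCd it fell by 1.57 at D28 against D18 (SE 0.17, edgeR adjusted p = 5.72e-07) and in SSCi by 1.38 at D32 against D18 (SE 0.18, edgeR adjusted p = 6.58e-06). At D22 against D18 Lbr fell by 0.82 in RWB and by 1.08 in SSCd, and at D25 against D18 it fell by 1.04 in SSCi (edgeR adjusted p = 0.00549, 0.000213 and 0.00136). The later steps gave log2 fold changes of -0.53 in RWB, -0.49 in SSCd and -0.34 in SSCi, none of them called (edgeR adjusted p = 0.0678, 0.0758 and 0.304). With the replicate number as a block, edgeR called the later steps in RWB (-0.54, adjusted p = 0.0378) and SSCd (-0.48, adjusted p = 0.049), and DESeq2 called both as well. The early RWB call was lost without RWB D18 replicate 1 (-0.75, edgeR adjusted p = 0.0614). The 3 last-day groups, with means of 40.6 ± 9.06 CPM for RWB, 38.4 ± 2.42 CPM for SSCd and 44.1 ± 3.59 CPM for SSCi (SD, n = 3 each), formed the low end of the order and overlapped their neighbours in it. The 3 D18 groups, between 103.8 and 114.6 CPM on average, formed the high end and overlapped one another.

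Lmna, the gene of lamins A and C, stood low in all but 1 library. It had 70.2 CPM in SSCi D18 replicate 1 and 9.32 CPM in replicate 2. In RWB its level was 4.58 and 4.05 CPM at D18, 6.02, 7.69 and 9.91 CPM at D22, and 3.73, 6.79 and 10.6 CPM at D25. In SSCd it was 3.97, 8.25 and 10.1 CPM at D18, 5.74, 11.4 and 13.7 CPM at D22, and 13.5, 8.37 and 11.1 CPM at D28. In the later SSCi groups it was 6.62 and 14.5 CPM at D25 and 10.8, 9.23 and 8.45 CPM at D32. Every group overlapped its neighbours in the order of mean levels, while the RWB D22 libraries all lay above those of RWB D18, a difference that was not called (0.87, edgeR adjusted p = 0.43). In each of the 4 libraries with the highest mitochondrial shares Lmna was the lowest of its group, and so were Lmnb1 and Lmnb2. Casz1 was the lowest there too, except in SSCd D22 replicate 1. The part of that share in these levels was not tested.

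Lmna was called lower in SSCi at D25 against D18 (-1.91, SE 0.66, edgeR adjusted p = 0.0478) and at D32 against D18 (-2.07, SE 0.58, edgeR adjusted p = 0.00857), although the libraries overlapped in both. Without SSCi D18 replicate 1 these values were 0.20 (edgeR adjusted p = 0.904) and 0.01 (edgeR adjusted p = 0.995), and without replicate 2 they were -2.66 and -2.84. The first call was also lost without SSCi D25 replicate 1 (-1.35, edgeR adjusted p = 0.312) and without SSCi D25 replicate 2 (-2.54, edgeR adjusted p = 0.0823). In the dissected cultures Lmna had log2 fold changes of 0.71 at D25 against D18 in RWB and 0.56 at D28 against D18 in SSCd, neither called (edgeR adjusted p = 0.42 and 0.445). At D18 Lmna was lower in SSCd than in SSCi (-2.42, SE 0.59, edgeR adjusted p = 0.0229) and lower in RWB than in SSCi (-3.20, SE 0.70, edgeR adjusted p = 0.0138), and without SSCi D18 replicate 1 these values were -0.33 (edgeR adjusted p = 1.0) and -1.11 (edgeR adjusted p = 0.662). The SSCd call was lost as well without SSCd D18 replicate 1, 2 or 3 (-2.11, -2.50 and -2.70, edgeR adjusted p = 0.101, 0.0784 and 0.0651). The RWB call was lost without RWB D18 replicate 1 or 2 (-3.27 and -3.05, edgeR adjusted p = 0.129 and 0.156). Every Lmna call thus depended on SSCi D18 replicate 1.

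That library also held mesenchyme transcripts. The summed level of 10 mesenchyme genes, among them the collagen gene Col1a1 and the smooth muscle genes Tagln and Acta2, was 7194 CPM in SSCi D18 replicate 1 and 49.4 CPM in replicate 2, and between 15.1 and 339.3 CPM in the other 22 libraries. All 10 averaged at least 1 CPM in SSCi D18. The part of these cells in the Lmna level was not tested. Microglial transcripts were near the floor, with 6 genes summing to 10.6 CPM at most in a library. Other lists were present in part. The 8 pigment epithelium genes summed to 16.2 to 1081 CPM per library, with Rpe65 and Best1 under 1 CPM in every library and 5 or 6 genes averaging at least 1 CPM in each group. The 6 endothelial genes summed to 41.6 to 302.6 CPM, with Cdh5 and Tie1 under 1 CPM in every library and 1 to 3 genes averaging at least 1 CPM. The 8 surface epithelium genes summed to 8.55 to 68.7 CPM, with Krt5, Krt14 and Cldn6 under 1 CPM in every library.

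**Figure D2:**
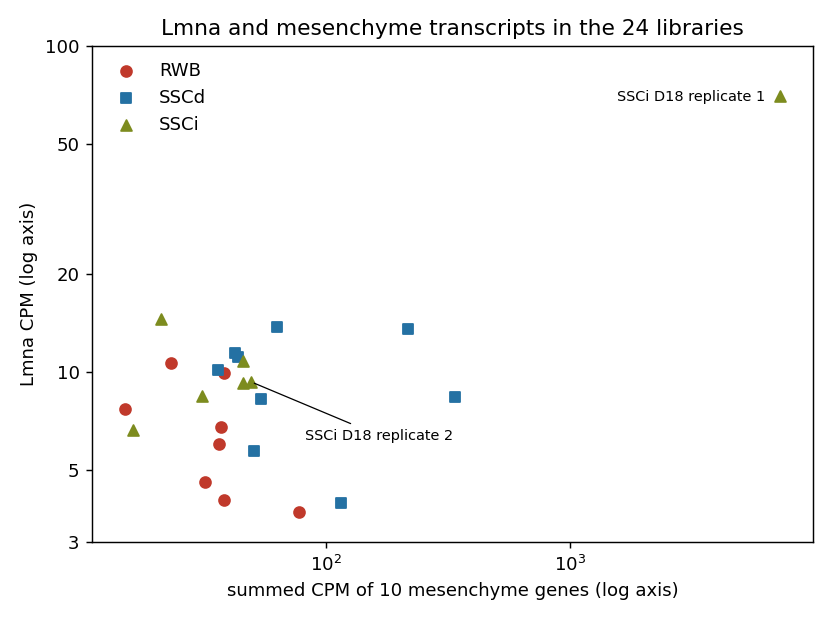
Lmna CPM against the summed CPM of 10 mesenchyme genes in each of the 24 libraries (both axes log), by culture. SSCi D18 replicate 1, with 70.2 and 7194 CPM, stands apart, while its partner replicate 2, with 9.32 and 49.4 CPM, lies among the other libraries.

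The transcript estimates also differed in that library. The transcript Lmna-201, whose 665 codons are the length of the lamin A precursor, took 83.3% of the Lmna count in SSCi D18 replicate 1 (1376 estimated counts), and 26.5% in replicate 2 (37.9 estimated counts). Lmna-203, of 574 codons, the length of lamin C, took 0% and 44.6% in the same libraries (0 and 63.6 estimated counts). In the other groups Lmna-201 took between 9.4% and 45.7%, and Lmna-203 between 5.71% and 51.0%. Lmna-203 was also at 0% in SSCd D28 replicate 3, so its absence was not particular to the mesenchyme-rich library. Counts of these transcripts were low, and kallisto-type estimates divide reads that fit several transcripts, so shares outside the mesenchyme-rich library are uncertain.

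Lmnb1, the gene of lamin B1 on chromosome 18, fell further than any other member in RWB. Its level there was 343.8 and 298.1 CPM at D18, 143.2, 165.0 and 174.2 CPM at D22, and 54.1, 70.7 and 57.7 CPM at D25. In SSCd it was 214.4, 350.0 and 267.2 CPM at D18, 137.1, 137.5 and 142.1 CPM at D22, and 87.7, 76.3 and 64.8 CPM at D28. In SSCi it was 211.0 and 336.9 CPM at D18, 170.9 and 184.8 CPM at D25, and 81.4, 64.0 and 74.0 CPM at D32. The days of a culture did not overlap, and the 3 last-day groups overlapped one another.

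Over the whole course Lmnb1 fell by 2.40 on the log2 scale in RWB (SE 0.21, edgeR adjusted p = 1.54e-07), by 1.86 in SSCd (SE 0.20, edgeR adjusted p = 4.92e-07) and by 1.90 in SSCi (SE 0.21, edgeR adjusted p = 8.44e-07). It was called at the early step in RWB (-1.0, edgeR adjusted p = 0.0041) and SSCd (-1.0, edgeR adjusted p = 0.00161), and not in SSCi (-0.62, edgeR adjusted p = 0.065). DESeq2, the transcript counts summed per gene and the fit without SSCi D18 replicate 1 (-0.91, edgeR adjusted p = 0.0291) called the SSCi step as well. It was called at the later step in RWB (-1.40, edgeR adjusted p = 0.000268), in SSCd (-0.86, edgeR adjusted p = 0.00722) and in SSCi (-1.28, edgeR adjusted p = 0.000579). Without RWB D18 replicate 1 the early RWB call was lost (-0.87, edgeR adjusted p = 0.0521).

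Lmnb2, the gene of the other B-type lamin, stood lower on the last day in each culture, with wide scatter at D18. In RWB it had 74.2 and 39.3 CPM at D18, 41.3, 54.9 and 54.3 CPM at D22, and 16.6, 37.4 and 31.8 CPM at D25. In SSCd it had 33.2, 68.9 and 66.6 CPM at D18, 36.9, 45.7 and 43.9 CPM at D22, and 37.1, 26.7 and 24.3 CPM at D28. In SSCi it had 28.5 and 64.8 CPM at D18, 39.6 and 58.9 CPM at D25, and 30.6, 26.4 and 27.7 CPM at D32. Each group overlapped the next in the order of its levels.

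Lmnb2 was called lower in SSCd at D28 against D18 (-0.94, SE 0.34, edgeR adjusted p = 0.0375), and this call was lost without SSCd D18 replicate 2 or 3 (-0.76 and -0.80, edgeR adjusted p = 0.141 and 0.115) and without SSCd D28 replicate 2 or 3 (-0.87 and -0.82, edgeR adjusted p = 0.106 and 0.126). In RWB it missed the threshold at D25 against D18 (-0.99, SE 0.37, edgeR adjusted p = 0.0513) and passed with the replicate block (-1.11, adjusted p = 0.0251). It also passed there without RWB D18 replicate 2 (-1.40, edgeR adjusted p = 0.0313) and without RWB D25 replicate 2 (-1.22, edgeR adjusted p = 0.0341). In SSCi it was not called at D32 against D18 (-0.72, edgeR adjusted p = 0.138) and was called without SSCi D18 replicate 1 (-1.21, edgeR adjusted p = 0.0337).

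Set per length, B-type lamin transcripts stood far above A-type ones throughout, and the gap narrowed. This level divides each transcript's estimated count by its annotated length and scales the libraries to the same total. The ratio of Lmnb1 plus Lmnb2 to Lmna on this scale averaged 81.1, 25.4 and 13.2 at D18, D22 and D25 in RWB. It averaged 45.6, 18.7 and 8.88 at D18, D22 and D28 in SSCd. In SSCi it was 3.25 in the mesenchyme-rich replicate 1 and 40.4 in replicate 2 at D18, and averaged 22.7 at D25 and 9.85 at D32. In RWB and SSCd the libraries of a later day lay below all those of an earlier day in this ratio, as they did in SSCi at D32 against D25. The Lmna level includes Lmna-205, a transcript with a retained intron that took 18.0% of the Lmna count over all libraries.

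Cbx1, the gene of HP1 beta, fell at every step in every culture. In RWB it had 250.1 and 282.1 CPM at D18, 149.3, 172.1 and 141.0 CPM at D22, and 117.6, 101.3 and 88.5 CPM at D25. In SSCd it had 222.5, 240.2 and 218.4 CPM at D18, 112.1, 150.2 and 109.5 CPM at D22, and 74.8, 90.2 and 74.6 CPM at D28. In SSCi it had 223.1 and 248.7 CPM at D18, 134.4 and 105.7 CPM at D25, and 77.2, 82.3 and 75.0 CPM at D32. No 2 days of the same culture overlapped.

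Over the whole course Cbx1 fell by 1.38 on the log2 scale in RWB (SE 0.17, edgeR adjusted p = 4.5e-06), by 1.51 in SSCd (SE 0.16, edgeR adjusted p = 3.98e-07) and by 1.59 in SSCi (SE 0.17, edgeR adjusted p = 5.04e-07). The early step gave -0.79 in RWB, -0.87 in SSCd and -0.97 in SSCi (edgeR adjusted p = 0.00461, 0.00077 and 0.00126). The later step gave -0.59 in RWB, -0.63 in SSCd and -0.62 in SSCi (edgeR adjusted p = 0.0279, 0.0127 and 0.0264). The early RWB call was lost without RWB D18 replicate 2 (-0.72, edgeR adjusted p = 0.0847). The later calls rested on small margins: in SSCi any of the 5 libraries left out ended the call (-0.49 to -0.78, edgeR adjusted p = 0.0501 to 0.221). In RWB it ended without D22 replicate 1 or 2 (-0.61 and -0.50, edgeR adjusted p = 0.0625 and 0.137) and without D25 replicate 2 or 3 (-0.58 and -0.49, edgeR adjusted p = 0.0816 and 0.112). In SSCd it ended without D22 replicate 2 (-0.46, edgeR adjusted p = 0.128) and without D28 replicate 1 or 3 (-0.59 in both, edgeR adjusted p = 0.0581 and 0.0562).

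Cbx5, the gene of HP1 alpha, stood highest at D18 in every culture. In RWB it had 488.0 and 563.3 CPM at D18, 376.8, 346.3 and 356.2 CPM at D22, and 435.9, 339.6 and 264.1 CPM at D25. In SSCd it had 544.8, 516.0 and 490.2 CPM at D18, 274.3, 312.7 and 340.0 CPM at D22, and 188.8, 266.5 and 242.2 CPM at D28. In SSCi it had 548.5 and 568.1 CPM at D18, 330.5 and 279.1 CPM at D25, and 184.6, 241.7 and 232.7 CPM at D32. The D18 groups stood above all others, and RWB D25 overlapped RWB D22.

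Cbx5 fell by 0.60 on the log2 scale at D25 against D18 in RWB (SE 0.19, edgeR adjusted p = 0.0245), by 1.15 at D28 against D18 in SSCd (SE 0.18, edgeR adjusted p = 4.25e-05) and by 1.35 at D32 against D18 in SSCi (SE 0.19, edgeR adjusted p = 1.94e-05). The early step in RWB was not called (-0.55, edgeR adjusted p = 0.0777), except by DESeq2 and from transcript counts summed per gene (-0.82, edgeR adjusted p = 0.00838). It was called in SSCd (-0.74, edgeR adjusted p = 0.008) and SSCi (-0.87, edgeR adjusted p = 0.00748), and the SSCi call was lost without SSCi D25 replicate 2 (-0.74, edgeR adjusted p = 0.108). The later steps were not called in any culture (-0.05 in RWB, -0.41 in SSCd and -0.47 in SSCi). The whole-course RWB call was lost without RWB D18 replicate 1 or 2 (-0.68 and -0.51, edgeR adjusted p = 0.0601 and 0.171) and without RWB D25 replicate 2 or 3 (-0.59 and -0.44, edgeR adjusted p = 0.0575 and 0.103). From transcript counts summed per gene the same change was -0.97 (edgeR adjusted p = 0.000711), since the deposited gene count of Cbx5 was 0.9 to 1.43 times its transcript sum depending on the library.

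Cbx3, the gene of HP1 gamma, had smaller log2 fold changes than Cbx1 and Cbx5 over each whole course, a difference between genes that was not tested. In RWB it had 436.8 and 447.2 CPM at D18, 472.9, 517.1 and 282.3 CPM at D22, and 487.1, 312.3 and 191.4 CPM at D25. In SSCd it had 503.9, 385.2 and 310.0 CPM at D18, 375.7, 448.3 and 279.1 CPM at D22, and 229.7, 256.6 and 201.6 CPM at D28. In SSCi it had 338.4 and 347.3 CPM at D18, 335.0 and 214.9 CPM at D25, and 217.2, 219.2 and 227.0 CPM at D32. The RWB libraries scattered widely, and those of D25 lay both above and below those of D18.

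Cbx3 was called lower in SSCd at D28 against D18 (-0.80, SE 0.29, edgeR adjusted p = 0.0346) and not in RWB (-0.42, SE 0.31, edgeR adjusted p = 0.341) or SSCi (-0.63, SE 0.31, edgeR adjusted p = 0.124). The SSCd call was lost without SSCd D18 replicate 1 or 2 (-0.60 and -0.83, edgeR adjusted p = 0.159 and 0.0641), and without SSCd D28 replicate 1, 2 or 3 (-0.80, -0.89 and -0.72, edgeR adjusted p = 0.0789, 0.0501 and 0.112). Transcript counts summed per gene ended it too (-0.81, edgeR adjusted p = 0.0526). Without RWB D25 replicate 1, the library with the largest mitochondrial share, the RWB change was -0.83 (edgeR adjusted p = 0.0489).

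On the per-length scale Cbx3 was the most abundant of the HP1 genes in every group, and its average share of the HP1 sum was larger on the later days than at D18. Cbx3 averaged 58.3% of the sum in RWB, 57.7% in SSCd and 53.2% in SSCi at D18. On the last day it averaged 66.9% in RWB, 67.0% in SSCd and 67.3% in SSCi. Cbx1 averaged 25.8%, 24.8% and 26.9% at D18 in RWB, SSCd and SSCi, and 16.6%, 17.4% and 17.5% on the last day. The Cbx1 level includes Cbx1-204, a transcript annotated as a target of nonsense-mediated decay that took 75.3% of the Cbx1 count over all libraries. Cbx5 averaged between 13.5% and 19.9% in all 9 groups. Shares of 1 library must sum to 100%, so they do not move independently.

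**Figure D3:**
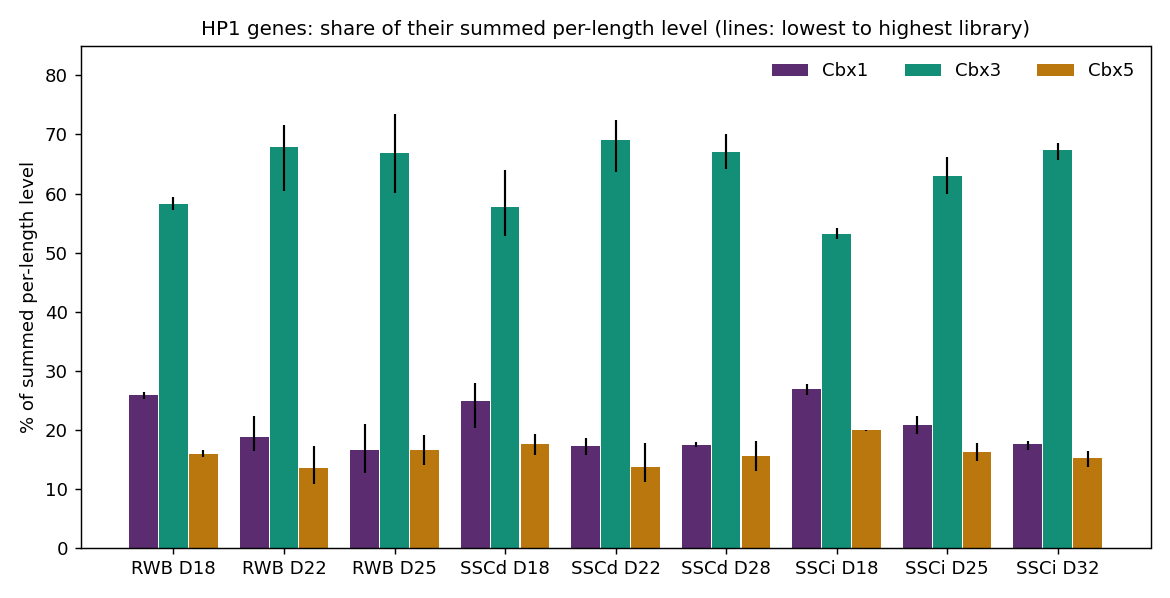
Share of the summed per-length level of Cbx1, Cbx3 and Cbx5 that each gene took, in percent, by culture and day. Bars are group means and lines run from the lowest to the highest library. Cbx3 takes 53.2% to 69.1% in every group, and Cbx1 takes less on the later days than at D18.

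Casz1 was the member that rose. In RWB it had 130.5 and 91.5 CPM at D18, 169.4, 184.5 and 193.1 CPM at D22, and 165.7, 361.0 and 350.1 CPM at D25. In SSCd it had 57.5, 98.3 and 132.3 CPM at D18, 176.5, 214.7 and 141.7 CPM at D22, and 424.2, 239.1 and 184.4 CPM at D28. In SSCi it had 38.0 and 87.0 CPM at D18, 189.0 and 261.5 CPM at D25, and 324.3, 266.6 and 298.2 CPM at D32. Every later library lay above every D18 library of its culture, while the middle and last days overlapped in RWB and SSCd.

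Casz1 rose by 1.40 on the log2 scale at D25 against D18 in RWB (SE 0.41, edgeR adjusted p = 0.0148), by 1.56 at D28 against D18 in SSCd (SE 0.36, edgeR adjusted p = 0.00217) and by 2.25 at D32 against D18 in SSCi (SE 0.43, edgeR adjusted p = 0.000382). Of the single steps, the early SSCi step was called (1.85, SE 0.45, edgeR adjusted p = 0.00627). The early steps in RWB (0.72, edgeR adjusted p = 0.291) and SSCd (0.89, edgeR adjusted p = 0.12) were not called. The RWB whole-course call was lost without RWB D18 replicate 2 (1.14, edgeR adjusted p = 0.172). The early SSCi call was lost without SSCi D18 replicate 1 (1.39, edgeR adjusted p = 0.11) and without SSCi D25 replicate 2 (1.60, edgeR adjusted p = 0.0644).

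Per length, Casz1 stood higher among the 8 on the last day than at D18. At D18 in SSCi it averaged 16.9 ± 8.44 (SD, n = 2), where Cbx3 averaged 417.7 ± 34.1. In replicate 1 Casz1 had 10.9 and Lmna 51.4, and in replicate 2 Casz1 had 22.9 and Lmna 6.20. Casz1 was thus the lowest of the 8 in the mesenchyme-rich library, and Lmna in the other. At D32 Casz1 stood at 93.5 ± 7.78 (SD, n = 3), behind Cbx3 at 314.0 ± 10.3, with Cbx1 at 81.7 ± 5.48 and Cbx5 at 71.0 ± 10.1. With each gene set to the length of its longest transcript, Cbx1 (89.4) and Casz1 (88.3) changed places. On that day Lmnb1 had 58.1 ± 5.42, Lbr 31.6 ± 2.33, Lmnb2 16.6 ± 1.10 and Lmna 7.63 ± 0.887 on the same scale. Lmna had the lowest mean of the 8 in every group except SSCi D18, an exception that rests on replicate 1.

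**Figure D4:**
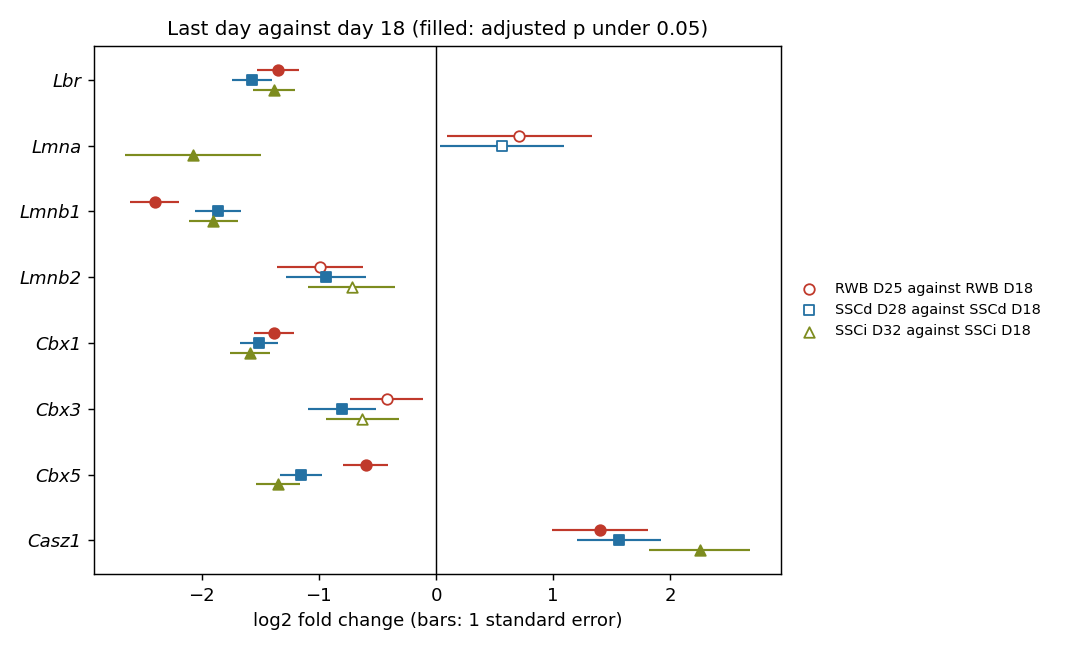
Log2 fold change of each gene on the last day against D18 in RWB, SSCd and SSCi, with bars of 1 standard error; filled symbols have an edgeR adjusted p under 0.05. Lbr, Lmnb1, Cbx1 and Cbx5 lie left of 0 and Casz1 right of 0 in all 3 courses, and Lmna is called in SSCi only, at -2.07. Without SSCi D18 replicate 1 that Lmna value was 0.01.

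Taking the steps as wholes, 3 of the 8 genes fell and 0 rose from D18 to D22 in RWB, where edgeR called 10.9% of all genes, 6.01% higher and 4.88% lower. In SSCd 4 fell and 0 rose over the same days, where 12.4% were called, 7.23% higher and 5.13% lower. In SSCi 4 fell and Casz1 rose from D18 to D25, where 19.8% were called, 8.89% higher and 10.9% lower. The 4 were Lbr, Lmna, Cbx1 and Cbx5. Without SSCi D18 replicate 1 the log2 fold change of Lmna was 0.20 and that of Casz1 was 1.39. At the later step Lmnb1 and Cbx1 were the 2 genes that fell in each culture. There edgeR called 5.2% of all genes in RWB, 1.97% higher and 3.23% lower. It called 8.05% in SSCd, 3% higher and 5.05% lower, and 8.25% in SSCi, 3.72% higher and 4.54% lower. The sharing of groups between the steps of a course means that their values are not independent.

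The cultures were then compared on shared days. Against SSCd, RWB differed in 0 of the 8 genes at D18, where edgeR called 0.488% of all genes, 0.0715% higher and 0.417% lower, and in 0 at D22, where 1.89% were called, 0.405% higher and 1.49% lower. At an unadjusted p under 0.05 the counts were also 0, where 1478 and 2194 of 16792 genes passed at D18 and D22. DESeq2 called 0 of the 8 on both days, and 259 and 659 of all genes. At D22 Lbr differed by 0.12 on the log2 scale (95% interval -0.22 to 0.46), Lmnb1 by 0.21 (-0.18 to 0.61), Cbx5 by 0.22 (-0.15 to 0.59) and Casz1 by 0.04 (-0.70 to 0.77). Cbx1 had the largest positive difference, 0.31 (-0.0 to 0.63), and Cbx3 differed by 0.21 (-0.39 to 0.80). The interval for Lmnb2 ran from -0.45 to 0.95, and that for Lmna, from -1.50 to 0.73, was the widest of the 8. The change from D18 to D22 in RWB minus that in SSCd was called for 0 of the 8 and for 0 of 16792 genes by edgeR, with 525 genes and 0 of the 8 at an unadjusted p under 0.05, while DESeq2 called 12 genes and 0 of the 8. For Lbr this difference in change was 0.26 (95% interval -0.25 to 0.77) and for Lmnb1 0.00 (-0.56 to 0.56). Such intervals do not show that the cultures were alike.

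At the ends of the dissected cultures, RWB D25 was set against SSCd D28, days that differ. None of the 8 was called by edgeR, where 3.06% of all genes were, 1.11% higher and 1.95% lower. At an unadjusted p under 0.05, which 2992 of 16792 genes reached, there were 2 of the 8. They were Cbx1 at 0.36 (95% interval 0.04 to 0.68) and Cbx5 at 0.58 (0.21 to 0.94). DESeq2 called Cbx5 (0.57, adjusted p = 0.0232), and so did edgeR without RWB D25 replicate 3 (0.74, adjusted p = 0.027). Lbr averaged 40.6 ± 9.06 CPM in RWB D25 and 38.4 ± 2.42 CPM in SSCd D28 (SD, n = 3 each), and Lmnb1 averaged 60.8 ± 8.74 CPM in RWB D25 and 76.3 ± 11.5 CPM in SSCd D28.

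At D25 RWB was set against SSCi, which differs from it in dissection, rotation and, from D18, the medium. Lmnb1 was lower in RWB, at 54.1, 70.7 and 57.7 CPM, against 170.9 and 184.8 CPM in SSCi. The log2 fold change was -1.55, with an SE of 0.21 and an edgeR adjusted p of 0.000151. It made Lmnb1 the 1 called gene of the 8, where 8.68% of all genes were called, 3.6% higher and 5.08% lower, and it kept its call whichever of the 5 libraries was left out (-1.49 to -1.67 over all alternatives tried). Lbr (-0.46, edgeR adjusted p = 0.117), Lmnb2 (-0.78, edgeR adjusted p = 0.189) and Cbx1 (-0.23, edgeR adjusted p = 0.411) were not called. For Casz1 the mean was 292.3 ± 109.7 CPM in RWB (SD, n = 3), against 225.3 ± 51.3 CPM in SSCi (SD, n = 2). It was not called (0.38, edgeR adjusted p = 0.584). The 12 cell cycle genes summed to 286.6 to 478.1 CPM in the RWB libraries and to 826.5 and 930.9 CPM in the SSCi libraries of that day, and the part of dividing cells in the Lmnb1 difference was not tested.

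The change of Lmnb1 from D18 to D25 was compared between RWB and SSCi after the data were seen. RWB changed by 1.78 log2 units more downward than SSCi (-1.78, SE 0.31, edgeR adjusted p = 0.00867), where 2.88% of all genes were called, 1.73% higher and 1.16% lower, and Lmnb1 was the 1 called gene of the 8. At D18 Lmnb1 did not differ beyond the threshold between RWB, with 343.8 and 298.1 CPM, and SSCi, with 211.0 and 336.9 CPM (0.23, edgeR adjusted p = 0.712), in a comparison also added later where 5.23% of all genes were called, 0.911% higher and 4.32% lower. The difference in change lost its call without SSCi D18 replicate 1 (-1.50, edgeR adjusted p = 0.0912), without SSCi D25 replicate 2 (-1.74, edgeR adjusted p = 0.0508) and in a fit of these 4 groups alone (-1.80, edgeR adjusted p = 0.194). Lmna had a difference in change of 2.63 that was not called (edgeR adjusted p = 0.119), and its SSCi start included the mesenchyme-rich library. Between SSCd and SSCi at D18, where 3.86% of all genes were called, 0.351% higher and 3.51% lower, Lmna was the 1 called gene, with the dependence given above.

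**Figure D5:**
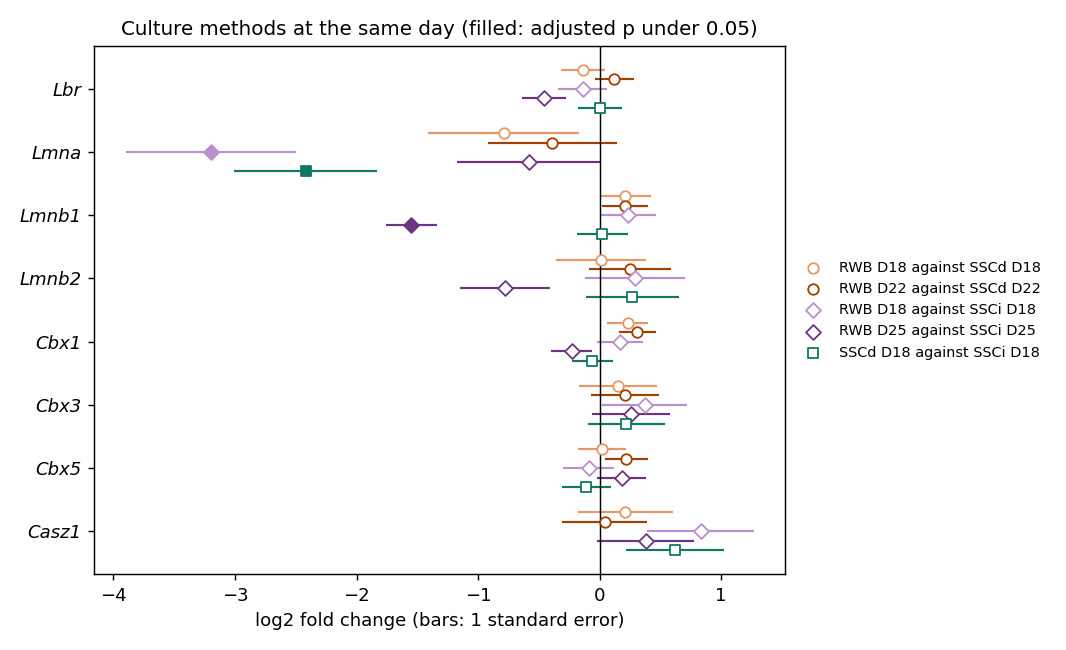
Log2 fold change of each gene between cultures on the same day, with bars of 1 standard error; filled symbols have an edgeR adjusted p under 0.05. Most values lie near 0; the called ones are Lmnb1 for RWB D25 against SSCi D25 at -1.55, and Lmna for RWB D18 and SSCd D18 against SSCi D18 at -3.20 and -2.42.

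Other genes of the same structures were followed over the whole courses, in lists whose makeup was fixed with earlier results of these data known. Counts are for RWB D25, SSCd D28 and SSCi D32 against D18, where edgeR called 14.9%, 17.5% and 16.2% of all genes higher and 14%, 17.1% and 20.5% lower. The SSCi values of these lists include SSCi D18 replicate 1. Of 18 genes of the nuclear membrane and of the LINC complex, which couples the nucleus to the cytoskeleton, 3, 4 and 3 rose and 6, 5 and 8 fell. Syne1, the gene of nesprin 1, rose by 1.61, 2.71 and 2.32, its partner Sun1 by 0.95, 1.12 and 1.16, and the phosphatidate phosphatase gene Lpin1 by 1.22, 1.23 and 1.19 on the log2 scale. Tmpo, which encodes the lamina-associated protein LAP2, changed by -1.73, -1.55 and -1.50, the emerin gene Emd by -0.75, -1.09 and -1.15, Nrm by -1.21, -1.26 and -1.02 and the chromatin-bridging factor gene Banf1 by -0.89, -1.11 and -0.97. The median over the list was -0.18, -0.27 and -0.25, beside 0.06, 0.02 and -0.05 over all genes.

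Of 10 genes of lamin processing and import, 2 rose in each course and 2, 1 and 2 fell. Icmt, the methyltransferase that finishes the tail of farnesylated proteins such as B-type lamins, averaged 69.3 ± 10.6, 175.0 ± 6.18 and 273.4 ± 40.0 CPM at D18, D22 and D25 in RWB (SD, n = 2, 3 and 3). It averaged 78.7 ± 15.1, 288.3 ± 82.4 and 528.4 ± 159 CPM at D18, D22 and D28 in SSCd (n = 3 each) and 75.3 ± 5.16, 301.3 ± 20.5 and 627.2 ± 72.4 CPM at D18, D25 and D32 in SSCi (n = 2, 2 and 3). It rose by 1.98, 2.75 and 3.06 on the log2 scale over the RWB, SSCd and SSCi courses (edgeR adjusted p = 1.12e-05, 4.16e-08 and 8.58e-08), in the opposite direction to Lmnb1. Fntb, a farnesyltransferase subunit gene, rose by 0.70, 0.70 and 0.63, and the importin gene Kpnb1 changed by -0.96, -0.76 and -1.03. The median of the list was 0.12, 0.21 and 0.17.

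Of 21 genes of histone H3 lysine 9 methylation and silencing, 1, 2 and 3 rose and 3, 5 and 3 fell in RWB, SSCd and SSCi, with medians of -0.13, -0.11 and -0.03. The demethylase gene Kdm4c rose by 1.33, 1.13 and 1.26. The methyltransferase gene Setdb1 changed by -0.73, -0.55 and -0.51 and its partner Trim28 by -0.85, -0.60 and -0.84, all called. Most genes of this list were not called, and the counts can be read against those of all genes above.

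Of 15 HP1 partners and chromatin assembly genes, 1, 0 and 1 rose and 9, 8 and 8 fell, and 8 fell in all 3 courses, with medians of -1.36, -1.44 and -1.38. Uhrf1, which reads methylated lysine 9 of histone H3 and hemimethylated DNA behind replication forks, changed by -4.53, -4.02 and -4.28, and Sgo1, which guards centromere cohesion, by -3.23, -4.28 and -4.57. The remodeler gene Hells changed by -3.03, -3.09 and -3.41, and the assembly factor gene Chaf1b by -3.18, -2.90 and -2.95. These 4 genes also serve dividing cells, and the cell cycle sum fell over the same days. The part of dividing cells in these changes was not tested.

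Of 21 linker histone and architectural chromatin genes, 1, 0 and 0 rose and 11, 14 and 15 fell, and 10 fell in all 3 courses, with medians of -0.78, -1.18 and -0.87. The high mobility group gene Hmgb2 changed by -1.89, -3.38 and -3.56, Hmga1 by -1.39, -2.27 and -2.24, the linker histone gene H1fx by -2.16, -3.03 and -3.46, and the histone variant gene H2afz by -1.37, -2.42 and -2.10. At D18 the H1fx libraries scattered widely, with 20.25 ± 17.66 CPM in RWB and 28.1 ± 28.6 CPM in SSCi (SD, n = 2 each). Its RWB call was near the threshold (edgeR adjusted p = 0.0486). Hmga1 averaged 394.1 ± 280.1 CPM in SSCi D18 (SD, n = 2). Since Lbr also encodes a sterol reductase, 8 genes of neighbouring steps of cholesterol synthesis were listed. Of these 0 rose and 2, 6 and 4 fell, with medians of -0.36, -0.93 and -0.76. Nsdhl changed by -0.95, -1.94 and -1.73 in RWB, SSCd and SSCi.

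The genes whose course was most like that of each member were found by the mean absolute difference between log2 CPM profiles over the 24 libraries, each centred on its own mean, among 10963 genes averaging 3 or more on that scale. For Lbr they were Elovl5 (0.162), Tmpo (0.163) and Hnrnpa1 (0.164), where the median gene differed by 0.575. For Lmnb1 they were Tspan14 (0.125), Incenp (0.146) and Tgif2 (0.165), against a median of 0.769, and for Cbx1 they were Alg8 (0.099), Zfp422 (0.123) and Larp7 (0.125), against 0.597. For Cbx5 they were Nmt2 (0.117), Set (0.12) and Ss18 (0.134), against 0.49, and for Cbx3 Mospd1 (0.099), Yae1d1 (0.108) and Eny2 (0.112), against 0.478. For Lmnb2 they were Mogs (0.155), Egln2 (0.159) and Mknk2 (0.168), against 0.514. Lmna and Casz1 had no profile as near. The closest to Lmna were Col6a1 (0.276), Ltbp3 (0.311) and Gaa (0.326), against 0.672. Without SSCi D18 replicate 1 they were Zfr2 (0.194), Slc4a3 (0.209) and Mib2 (0.212), against 0.574, so 0 of the 3 were shared. The closest to Casz1 were Mcf2l (0.21), Wdtc1 (0.213) and Mef2d (0.229), against 0.742. Without that library the 3 nearest genes were the same for Lmnb1, Cbx1 and Casz1, while 2 of 3 were shared for Lmnb2 and Cbx5 and 1 of 3 for Lbr and Cbx3.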

How the data were processed

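Stranded polyadenylated RNA libraries of 24 organoid samples were grouped by culture and day from their titles. Named without a role in the submitters' processing notes are limma 3.32.2, edgeR 3.13.9, kallisto 0.42.5 and GRCm38.p5. The deposited gene table holds estimated counts, not normalized, of which 42.1% are whole numbers. The sources used here do not say which annotation release the authors used or how they combined transcripts into genes. The gene values differ from the deposited transcript estimated counts summed per gene, which were used as an alternative. A deposited normalized table was not used.

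Estimated counts were rounded, filtered with filterByExpr by group (16792 genes left) and scaled by TMM. edgeR 4.0.16 under R 4.3.3 fitted 9 group means over all 24 libraries (robust quasi-likelihood, median biological coefficient of variation 0.256), with Benjamini-Hochberg adjustment over all genes and a threshold of 0.05. Log2 CPM have a prior count of 2. Intervals of 95% use 19.6 degrees of freedom. Per-length levels use transcript lengths of GENCODE M21, which covered 99.35% of the counts. Alternatives were RLE scaling, DESeq2 1.42.0, no filter, a fit of the compared groups, a replicate block, each library left out, and leaving out the 4 libraries of highest mitochondrial share. Depth limits the precision of low genes such as Lmna most.

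The members, lists and motifs were chosen with earlier results of these data known. The comparisons of RWB with SSCi at D18 and of their changes, the transcript sums, and the profile likeness without SSCi D18 replicate 1 were added after seeing the data. The naming rule covers all 8 members, up to 4 list genes in each direction called in all 3 courses averaging 3 or more on the log2 CPM scale, and the 3 genes nearest each member's profile. 1 gene that the rule names is not reported here.

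Same-numbered libraries deviated together in every one of 3 pairs between RWB D25 and D22 (correlations of deviations 0.68, 0.33 and 0.61), SSCd D22 and D18 (0.55, 0.14 and 0.50), SSCd D28 and D22 (0.39, 0.32 and 0.50), and RWB D22 and SSCd D22 (0.61, 0.38 and 0.58). This rests on the data, as the labels do not say what equal numbers mean. Between RWB D25 and SSCd D28 the 3 correlations were also positive, at 0.19, 0.06 and 0.30. Between libraries of a group the variance was 10.3 to 273 times that of counting, and each was kept as a sample of its own. P-values rest on a spread between samples that was estimated over all 24 libraries. The main fit treats same-numbered libraries as independent, and the replicate block was used as an alternative only.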

Additional observations from a re-analysis of the deposited data

Results flagged for a closer look

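The change of Lmnb1 from D18 to D25 differed between RWB and SSCi by -1.78 on the log2 scale (SE 0.31, edgeR adjusted p = 0.00867), tested as a difference between the 2 changes. From D18 to D25 Lmnb1 fell by 2.40 in RWB, and it changed by -0.62 in SSCi, where the step was not called (edgeR adjusted p = 0.065). The RWB libraries had 343.8 and 298.1 CPM at D18 and 54.1, 70.7 and 57.7 CPM at D25. The SSCi libraries had 211.0 and 336.9 CPM at D18 and 170.9 and 184.8 CPM at D25. The comparison was added after the data were seen. Its call was lost without SSCi D18 replicate 1 (-1.50) and without SSCi D25 replicate 2 (-1.74). It was also lost in a fit of these 4 groups alone (edgeR adjusted p = 0.194), which called 0 of all genes. Serum, B27 and amino acids had been added from D18 in RWB and not yet in SSCi, so culture and medium cannot be told apart here.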

How the results depend on the processing

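Of the 8 genes, the number called by edgeR in the fit of the compared groups alone was 1 of 2 for RWB D25 against D22, 3 of 5 for RWB D25 against D18, 1 of 2 for SSCd D28 against D22 and 1 of 5 for SSCi D25 against D18. Of all genes that fit called 164, 2488, 761 and 1124 in these comparisons, where the full fit called 873, 4855, 1351 and 3331. In the same fit the number of the 8 called was 4, where the full fit gave 2, for SSCi D32 against D25. There it called 3784 of all genes, where the full fit called 1386. The number was 0, where the full fit gave 1, for SSCd D18 against SSCi D18, RWB D18 against SSCi D18 and the RWB change minus the SSCi change. In these comparisons the same fit called 0 of all genes, where the full fit called 649, 878 and 484. Without the 4 libraries of highest mitochondrial share SSCd D18 against SSCi D18 gave 0 of the 8 and 28 of all genes. DESeq2 gave 1 for RWB D25 against SSCd D28 (Cbx5) and 2 (Lmnb1 and Lmna) for the RWB change minus the SSCi change. It called 1069 and 1196 of all genes there, where edgeR called 513 and 484. Leaving out a library gave 1 to 3 for RWB D22 against D18, 1 to 3 for RWB D25 against D22, 1 to 2 for SSCd D28 against D22, 2 to 5 for SSCi D25 against D18 and 1 in each case for SSCi D32 against D25. It gave 0 to 1 for SSCd D18 against SSCi D18, RWB D25 against SSCd D28 and RWB D18 against SSCi D18, and 0 to 2 for the RWB change minus the SSCi change. For RWB D25 against D22 the fits with a library left out called 444 to 751 of all genes. For SSCd D28 against D22 they called 643 to 1330, and for RWB D25 against SSCd D28 192 to 637. Where a group had 2 libraries, the lone one left is assumed to vary like the other groups. Lmna turned to 0.20 for SSCi D25 against D18 and to 0.01 for SSCi D32 against D18 without SSCi D18 replicate 1; over all left-out libraries the first ran from -2.66 to 0.20 and the second from -2.84 to 0.01. Fewer samples enter the fits of the compared groups and those with libraries left out. Why the counts and values moved was not tested.

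With the replicate number as a block, edgeR gained Lbr for RWB D25 against D22 (-0.54, adjusted p = 0.0378) and SSCd D28 against D22 (-0.48, adjusted p = 0.049) and Lmnb2 for RWB D25 against D18 (-1.11, adjusted p = 0.0251), and lost no call of the 8 genes. The pairing check held for the first 2 of these and could not be met for the last, which has a group of 2. RLE scaling ended 1 call, Lmna for SSCi D25 against D18 (-1.90, adjusted p = 0.0505), and so did the absence of a filter (adjusted p = 0.0807). Using the longest transcript's length for every gene kept Cbx3 the highest of the HP1 genes in all 9 groups. Lmna, at 14.5 CPM or less outside SSCi D18 replicate 1, is where depth limits most.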

Other observations

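Over all libraries the leading transcript took 88.2% of the count for Lbr, 96.2% for Lmnb1, 94.1% for Lmnb2, 93.9% for Cbx5 and 84.0% for Casz1, where it has 1762 codons. The Cbx3 count was divided between 2 main transcripts with 73.4% and 21.3%, which have the same 183 codons. Cbx1-204, annotated as a target of nonsense-mediated decay, took 75.3% of the Cbx1 count, and Cbx1-203, whose 185 codons encode the full protein, took 20.6%. The Cbx1-204 share was between 74.2% and 77.2% in the group means. These are the authors' estimated counts, which divide reads shared by several transcripts.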
